A study of Mus musculus with 32 samples.

Results

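The early genotype difference was measured in 8 of the 32 RNA-seq libraries of the study, those labelled knockout or wild type at 1 h of LPS, with 4 libraries of each. Bone marrow-derived macrophages (BMDMs) were grown for 7 days in medium with L929-conditioned medium, the usual source of the growth factor M-CSF, from bone marrow of male C57Bl6/J mice aged 6 to 12 weeks. BMDM-WT came from wild-type littermates and BMDM-Nur77-KO from Nur77-KO mice, whose genotype is given as cre in the sample labels. These mice lack Nur77 in the whole body: Cre recombinase under the human cytomegalovirus promoter removed the loxP-flanked Nr4a1 locus in an earlier cross, and the mice used were later bred without Cre. Both groups received 100 ng/ml LPS for 1 h before RNA was extracted, and the 0 h groups of the same genotypes, with no LPS, are used below as the reference for the LPS response. Wells were seeded in 4 replicates, and the number of animals behind them is not stated. The p-values measure the spread between replicate libraries, estimated over all 32 libraries of the study, and this spread may be technical.

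Nur77 is a nuclear receptor encoded by the immediate-early gene Nr4a1. Together with Nurr1 (Nr4a2) and NOR1 (Nr4a3) it forms the NR4A family, which binds the NBRE element of DNA without needing a known ligand and is switched on within minutes to hours in stimulated macrophages. LPS, a component of the wall of Gram-negative bacteria, is sensed through CD14 and TLR4, and the first wave of its response consists of AP-1 and NF-kB factors, feedback inhibitors, chemokines and cytokines. The first wave needs no new protein synthesis, and an interferon-dependent second wave follows it.

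The 8 libraries held 8742362 to 13374608 counts on 1 transcript per gene, with a median of 11847140.0, and replicate 4 of BMDM-WT was the shallowest. In a principal component analysis of these libraries, 44.6% of the variance lay on component 1, which separated the genotypes, with BMDM-Nur77-KO between -18.1 and -15.4 and BMDM-WT between 14.9 and 21.3. Replicate 4 of BMDM-WT lay farthest out and had the lowest median correlation with its own group (0.991 against 0.993 to 0.994 for the other 7 libraries), so the calls that ended without it are given below. The targeted gene followed the labels in every library. In CPM, counts scaled to the library's total, Nr4a1, on chromosome 15 of mm10 from 101253902 to 101274795, was at 243, 179.8, 146 and 193 CPM in BMDM-Nur77-KO and 484, 485, 358 and 421 CPM in BMDM-WT (log2 fold change -1.20, SE 0.15, edgeR adjusted p = 1.8e-06). The groups did not overlap. Tags on Nr4a1 were still counted in every knockout library, and which part of the gene they fell on is not given in the count table. Macrophage markers were abundant in every library, and none of 11 of them, led by Lyz2, Csf1r and Cd68, was called different. Their summed level was 16432 to 18759 CPM in BMDM-Nur77-KO and 18042 to 20407 CPM in BMDM-WT. Msr1 and Fcgr1 were lower by the test but under the fold limit given below, at -0.48 (edgeR adjusted p = 0.014) and -0.31 (edgeR adjusted p = 0.03). No macrophage marker passed in the other direction.

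At 1 h BMDM-Nur77-KO differed from BMDM-WT in 170 genes (1.51%) with higher and 153 (1.36%) with lower expression, of 11279 tested. The test was edgeR's quasi-likelihood test with an adjusted p under 0.05, and the log2 fold change had to exceed 0.58 in size. Together these 323 genes, 2.86% of those tested, are the genes called below. With no limit on the fold change 734 genes passed (6.51%), 391 higher and 343 lower, and with a limit of 1 on the log2 scale 77 and 50. Differences beyond 2 on the log2 scale were seen in 15 higher and 20 lower genes. The typical gene moved little, with a median size of the log2 fold change of 0.13 beside a median SE of 0.14. In 309 of the 323 called genes the 4 values of one genotype all lay above the 4 of the other, against 19.4% of all genes tested (10.1% with the knockout above and 9.31% with it below). In bulk RNA, a lower level cannot be told apart from fewer cells of a type that carries the transcript.

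**Figure D1:**
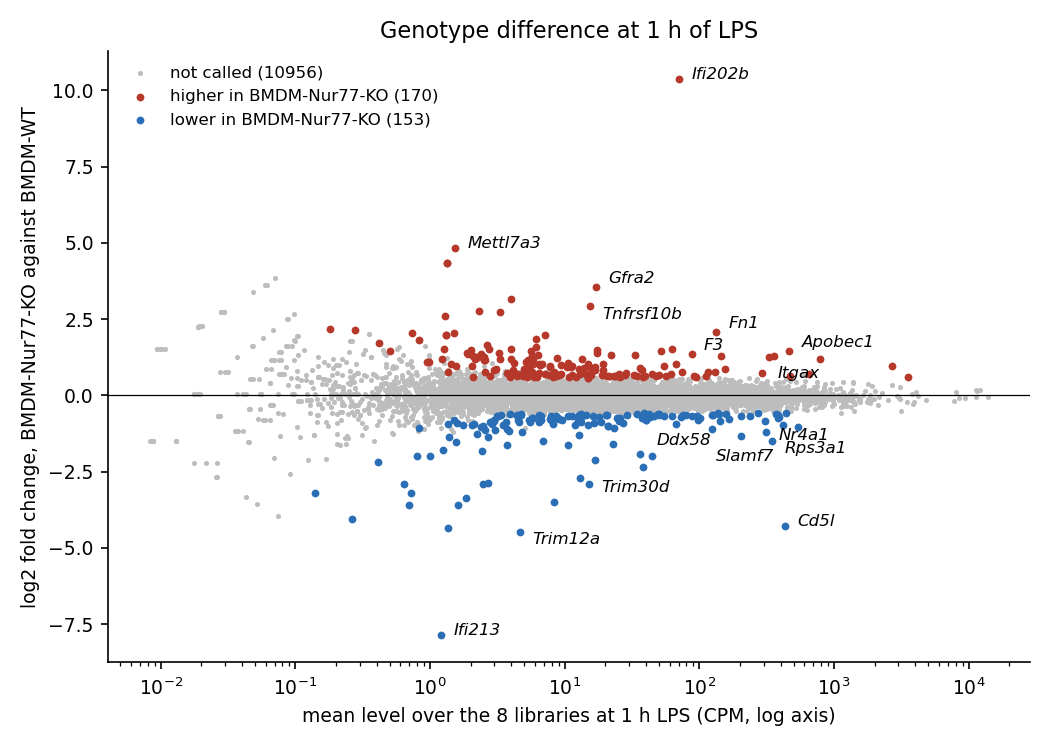
Each point is 1 of the genes tested, with its mean level over the 8 libraries at 1 h in CPM (log axis) and its log2 fold change, BMDM-Nur77-KO against BMDM-WT. Red points are the 170 genes called higher, blue points the 153 called lower and grey points the 10956 not called (21 genes with no count in any of the 8 libraries have no place on the axis); called genes lie at all levels, from under 1 CPM to the abundant matrix-degrading enzyme Mmp12.

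All 3 NR4A genes were induced by LPS, and all 3 had lower values in BMDM-Nur77-KO at 1 h. Nr4a3, which encodes NOR1, was at 8.38, 5.27, 5.26 and 7.21 CPM against 12.2, 11.1, 7.56 and 12.9 CPM (log2 fold change -0.74, SE 0.19, edgeR adjusted p = 0.016). Where values are set against each other in this way, those of BMDM-Nur77-KO come first, in the order of the replicates. Here the groups touched, since the highest knockout value, 8.38 CPM, lay above the lowest wild-type value, 7.56 CPM, and the call was lost without replicate 2 or 3 of BMDM-Nur77-KO or replicate 1 or 4 of BMDM-WT (edgeR adjusted p up to 0.081). Nr4a2, which encodes Nurr1, was at 8.81, 6.02, 5.90 and 6.53 CPM against 12.2, 11.1, 7.22 and 11.1 CPM and did not pass (log2 fold change -0.61, SE 0.19, edgeR adjusted p = 0.052), although it did without replicate 1 of BMDM-Nur77-KO or replicate 3 of BMDM-WT. Nr4a2 passed as well with a correction for GC content, with the RPKM filter at 1 h alone and in a fit to the libraries of the contrast alone. Neither relative was called higher in BMDM-Nur77-KO at this time.

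Among the genes with higher expression in BMDM-Nur77-KO, several encode surface receptors and matrix proteins. Ifi202b, a member of the interferon-inducible Ifi200 family of DNA sensors, had the largest difference, at 118, 134, 159 and 152 CPM in BMDM-Nur77-KO and 0, 0.281, 0 and 0.104 CPM in BMDM-WT (log2 fold change 10.39, SE 0.44, edgeR adjusted p = 1.1e-15). It was close to absent from BMDM-WT, with at most 4 counts in a library, so the size of its fold change depends on how such counts are moderated. Gfra2, the co-receptor for neurturin, reached 28.5, 32.6, 30.8 and 33.0 CPM in BMDM-Nur77-KO and 2.13, 3.52, 2.94 and 1.88 CPM in BMDM-WT (log2 fold change 3.55, SE 0.18, edgeR adjusted p = 1e-14). Tnfrsf10b, a death receptor for TRAIL, was at 28.1, 27.5, 26.6 and 26.1 CPM in BMDM-Nur77-KO and 3.27, 2.81, 4.28 and 3.86 CPM in BMDM-WT (log2 fold change 2.93, SE 0.19, edgeR adjusted p = 2.5e-12). In each of these 3 genes, every knockout library lay several-fold above every wild-type library. Fibronectin (Fn1), the matrix glycoprotein, was at 195, 216, 218 and 227 CPM in BMDM-Nur77-KO and 43.6, 46.2, 57.5 and 57.5 CPM in BMDM-WT (log2 fold change 2.07, SE 0.12, edgeR adjusted p = 6.5e-14).

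The genes of cell adhesion and matrix turnover as a list showed no common direction. Of 23 genes for matrix metalloproteinases and integrins, 4 were higher and 1 lower, with a median log2 fold change over the list of -0.01. Macrophage elastase (Mmp12) was at 3009, 3715, 3752 and 3827 CPM in BMDM-Nur77-KO and 1631, 1674, 1937 and 2130.3 CPM in BMDM-WT (log2 fold change 0.96, SE 0.14, edgeR adjusted p = 1.5e-05). Gelatinase B (Mmp9) was at 908, 1071, 1189 and 1183 CPM in BMDM-Nur77-KO and 398, 410.4, 558 and 554 CPM in BMDM-WT (log2 fold change 1.18, SE 0.16, edgeR adjusted p = 6.1e-06). Itgax, the integrin chain CD11c, was at 452, 468, 463 and 483 CPM in BMDM-Nur77-KO and 184, 169, 210.0 and 213 CPM in BMDM-WT (log2 fold change 1.27, SE 0.10, edgeR adjusted p = 6e-11). The groups did not overlap in any of the 3. Timp1, an inhibitor of these proteases, was also higher (log2 fold change 1.14, SE 0.17, edgeR adjusted p = 2.4e-05), whereas Itgav, the integrin chain alpha V, was the lower gene (log2 fold change -0.64, SE 0.15, edgeR adjusted p = 0.0064) and fell short of the fold limit without replicate 4 of BMDM-WT (log2 fold change -0.55). Apobec1, the cytidine deaminase that edits apolipoprotein B mRNA, was named after its values were seen, for its abundance: 713, 692, 658 and 654 CPM in BMDM-Nur77-KO and 271, 250.3, 239.7 and 237 CPM in BMDM-WT (log2 fold change 1.45, SE 0.06, edgeR adjusted p = 1.7e-16).

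Further genes with large differences were expressed at low levels. Mettl7a3 was at 3.16, 2.86, 2.95 and 3.00 CPM against 0.142, 0.0704, 0.134 and 0 CPM (log2 fold change 4.84, SE 0.49, edgeR adjusted p = 2.7e-08), with 0 to 2 counts in a library of BMDM-WT. Ankrd37, a small ankyrin-repeat protein gene known as a target of hypoxia-inducible factor, was at 7.44, 6.62, 7.18 and 7.43 CPM against 1.14, 0.844, 0.535 and 0.626 CPM (log2 fold change 3.16, SE 0.30, edgeR adjusted p = 9.6e-09). Kcnab1 and Kcnj10, which encode potassium channel subunits, had log2 fold changes of 2.75 (edgeR adjusted p = 1.6e-09) and 2.73 (edgeR adjusted p = 1.2e-07). For Erdr1 and its near-identical copy Gm47283, which may share reads and are uncertain, replicate 1 of BMDM-Nur77-KO held 6.24 and 6.33 CPM beside 0.903 to 1.80 CPM in the other knockout libraries. Their log2 fold changes were 4.34 (edgeR adjusted p = 0.0027) and 4.33 (edgeR adjusted p = 0.003). With any 1 library left out both stayed called, with log2 fold changes no lower than 3.43 and 3.38 (edgeR adjusted p up to 0.03 and 0.034).

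Of the lower genes, the one with the smallest p-value was Cd5l, also known as AIM, a protein secreted by macrophages that inhibits apoptosis and is a target of the oxysterol receptor LXR. Its level was 43.6, 43.9, 39.1 and 43.4 CPM in BMDM-Nur77-KO and 883, 846, 827 and 719 CPM in BMDM-WT (log2 fold change -4.27, SE 0.14, edgeR adjusted p = 5.5e-20). All knockout libraries lay between 39.1 and 43.9 CPM and all wild-type libraries between 719 and 883 CPM, and a difference of like size was present before LPS (log2 fold change -4.43 at 0 h), at 5 h (-4.56) and at 18 h (-4.53). Of the other LXR targets Apoc2, an apolipoprotein, was called lower (log2 fold change -0.72, SE 0.18, edgeR adjusted p = 0.01), but not without replicate 2 of BMDM-Nur77-KO or replicate 1 of BMDM-WT (edgeR adjusted p up to 0.068). The 17 LXR targets tested had no higher member and a median log2 fold change of -0.10, and the lipid exporters Abca1 and Abcg1 had log2 fold changes of -0.32 (edgeR adjusted p = 0.28) and 0.24 (edgeR adjusted p = 0.067).

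Beside Ifi202b, the Ifi200 family held 7 lower genes among the 12 tested. Ifi213 had no count in any library of BMDM-Nur77-KO and 28 to 35 counts in those of BMDM-WT, which makes it at least 10.2-fold lower against a floor of 3 counts per library. Ifi209 was at 10.9, 10.4, 15.3 and 14.1 CPM against 62.4, 64.3, 57.1 and 72.8 CPM (log2 fold change -2.33, SE 0.23, edgeR adjusted p = 2.3e-08). Ifi211 was at 15.9, 16.4, 17.9 and 20.7 CPM against 77.2, 68.3, 61.0 and 76.0 CPM (log2 fold change -1.99, SE 0.15, edgeR adjusted p = 4.2e-11). The abundant Ifi207 was at 266, 266, 290.4 and 295 CPM against 521, 556, 528 and 599 CPM (log2 fold change -0.98, SE 0.23, edgeR adjusted p = 0.0051). Ifi204, Ifi205 and Ifi208 were lower by the same test, with log2 fold changes of -0.83, -2.69 and -3.60, and Mndal, Ifi203, Aim2 and Ifi214 did not pass. The knockout values lay under the wild-type values in all 4 libraries for each of the 7. These genes are alike in sequence and may share reads, which was not tested, so the split of tags among them is uncertain.

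Lower genes also predominated in the cluster of Trim genes on chromosome 7, which encode antiviral ubiquitin ligases related to TRIM5 alpha. Of 11 tested, 5 were lower and 1 higher. Trim12a was at 0.342, 0.301, 0.638 and 0.300 CPM against 11.4, 6.05, 9.77 and 8.55 CPM (log2 fold change -4.47, SE 0.30, edgeR adjusted p = 3.4e-12). Trim30d was at 3.16, 2.41, 3.99 and 4.66 CPM against 25.0, 27.3, 24.2 and 30.0 CPM (log2 fold change -2.90, SE 0.17, edgeR adjusted p = 2e-13). Trim5 was at 0.171, 0.376, 1.44 and 0.601 CPM against 5.68, 5.07, 4.28 and 3.96 CPM (log2 fold change -2.86, SE 0.39, edgeR adjusted p = 7e-06). In each of them, no knockout library reached the lowest wild-type one. Trim34a was lower (log2 fold change -1.49, edgeR adjusted p = 8.3e-07) while its close copy Trim34b was higher (log2 fold change 0.98, edgeR adjusted p = 0.042); the latter call was lost without any of 6 libraries, among them replicate 3 of BMDM-WT (edgeR adjusted p = 0.16), and the scarce Trim30b was lost without any of 7 (up to 0.14, without replicate 1 of BMDM-WT). Reads may be shared in this family as well. Rps3a1, a ribosomal protein gene with many processed copies and so an uncertain one, was named after its values were seen and was at 189.8, 189, 167 and 179.8 CPM against 553, 489, 499 and 486 CPM (log2 fold change -1.48, SE 0.10, edgeR adjusted p = 1.1e-11). Ddx58 encodes the viral RNA sensor RIG-I and lies on chromosome 4, away from both clusters, at 13.5, 14.0, 16.6 and 16.2 CPM in BMDM-Nur77-KO and 51.0, 58.4, 56.6 and 60.7 CPM in BMDM-WT (log2 fold change -1.91, SE 0.10, edgeR adjusted p = 3.3e-14).

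Other large differences were in genes at a low level in one or both groups. Among the lower genes, Zdhhc2, which encodes a palmitoyltransferase, was at 0.171, 0, 0.160 and 0.150 CPM against 2.84, 2.39, 2.81 and 2.29 CPM (log2 fold change -4.35, SE 0.44, edgeR adjusted p = 2.8e-08), with at most 2 counts in a knockout library. Gzmb, the protease granzyme B of cytotoxic cells, was at 0, 0.0752, 0 and 0 CPM against 0.568, 0.493, 0.334 and 0.626 CPM (log2 fold change -4.07, SE 0.82, edgeR adjusted p = 0.0012), with at most 1 count in a knockout library. Sh2d1b1, which encodes EAT-2, an adaptor of SLAM family receptors, was at 0.513, 0.301, 0.319 and 0.150 CPM against 3.98, 3.24, 2.41 and 3.86 CPM (log2 fold change -3.36, SE 0.41, edgeR adjusted p = 7.7e-07). In none of these did the groups overlap. Dppa3, a maternal factor of the early embryo, and Cysltr2, a receptor for cysteinyl leukotrienes, had log2 fold changes of -3.58 (edgeR adjusted p = 1.6e-06) and -2.90 (edgeR adjusted p = 0.00012), at no more than 3 counts in a knockout library, and Nos1ap, an adaptor of neuronal nitric oxide synthase, and Gm7694 had -2.91 (edgeR adjusted p = 2.2e-08) and -3.48 (edgeR adjusted p = 9.3e-13). Of the higher genes, 4930480K23Rik, Ccl28, a chemokine of mucosal tissues, and Depp1 had log2 fold changes of 2.61 (edgeR adjusted p = 4.2e-08), 2.03 (edgeR adjusted p = 3.5e-05) and 2.03 (edgeR adjusted p = 0.0057), at mean levels of no more than 2.43 CPM in BMDM-Nur77-KO.

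The called genes were unevenly placed in the genome. On chromosome 1, 17 genes were higher and 32 lower of 674 tested (7.27%), followed by chromosome 3 (5.06%), chromosome 14 (4.99%) and chromosome 6 (4.87%), beside 2.86% over all genes. In windows of 5 Mb, chosen after the values were seen, 9 of the 511 windows with a tested gene held at least 4 called genes each. These 9 held 70 called genes, which is 21.7% of the called genes and 3.87% of the genes tested. On chromosome 1 from 170 to 175 Mb, 26 of 67 genes (38.8%) were called, 4 higher and 22 lower, including 8 Ifi200 genes, Slamf7, Slamf8, Cd244a, Fcer1g and Atf6. On chromosome 14 from 65 to 70 Mb, 6 of 23 genes (26.1%) were called, all higher, among them Tnfrsf10b. The next window, from 70 to 75 Mb, held Egr3 and Gfra2 among 4 called of 28, and chromosome 7 from 100 to 105 Mb held the Trim genes among 9 called of 49 (18.4%). A further 7 of 32 genes (21.9%) were called on chromosome 6 from 115 to 120 Mb.

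Around the targeted locus itself, 92 genes lay within 5 Mb of the start of Nr4a1, and 4 were higher and 2 lower (6.52%). They were Mettl7a3, Gpd1, a glycerol-3-phosphate dehydrogenase, Csrnp2 and Ppp1r1a among the higher, and Spats2 and Rnd1 among the lower. Spats2 was at 1.71, 1.73, 1.60 and 2.18 CPM against 5.68, 6.26, 4.95 and 5.42 CPM (log2 fold change -1.62, SE 0.20, edgeR adjusted p = 1.4e-06). The call of Ppp1r1a was lost without replicate 3 or 4 of BMDM-Nur77-KO or replicate 4 of BMDM-WT (edgeR adjusted p up to 0.13). With the genes of the 9 windows left out, 142 genes were higher and 111 lower.

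**Figure D2:**
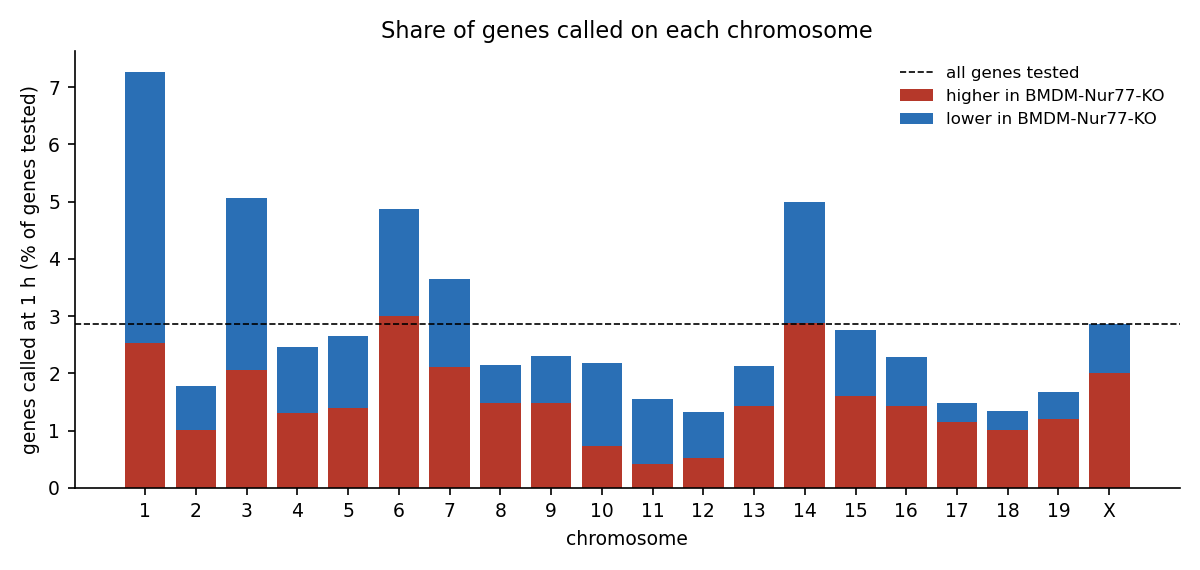
Bars give the percentage of tested genes called higher (red) or lower (blue) in BMDM-Nur77-KO at 1 h, for each chromosome, with the axis starting at 0. Chromosome 1 has the highest bar, with 7.27% of 674 genes called, and chromosome 18 is among the lowest, with 3 higher and 1 lower of 297.

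The LPS response was then taken into account. Averaged over both genotypes, 382 genes (3.39%) were induced by 1 h of LPS and 165 (1.46%) repressed, where edgeR's adjusted p had to be under 0.05 and the log2 fold change above 1 or below -1. In BMDM-Nur77-KO, 15 of the induced genes were higher (3.93%) and 26 lower (6.81%), beside 1.51% and 1.36% of all genes. The induced genes as a whole were shifted slightly down, with a median log2 fold change of -0.12 and 252 of 382 below 0, and the repressed genes slightly up, with a median of 0.12 and 105 of 165 above 0, where the median of all genes was -0.00098. The medians kept their sign under every alternative for which they were computed, which leaves out that of every transcript, with those of the induced genes between -0.17 and -0.10. The count of 26 was less steady. It was 15 without replicate 1 of BMDM-WT and 29 without replicate 3 of BMDM-WT, and 40 with every transcript, 53 with no fold limit and 5 with a fold limit of 1.

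Chemokines, cytokines and inflammatory enzymes were among the induced genes with lower expression. Il10, the main anti-inflammatory cytokine of macrophages, was at 138, 119, 109 and 121 CPM in BMDM-Nur77-KO and 223, 231, 174 and 203 CPM in BMDM-WT (log2 fold change -0.77, SE 0.11, edgeR adjusted p = 2.2e-05). Ptgs2, which encodes the prostaglandin-forming cyclooxygenase COX-2, was at 292, 246, 302 and 302 CPM in BMDM-Nur77-KO and 447, 496, 392 and 565 CPM in BMDM-WT (log2 fold change -0.73, SE 0.17, edgeR adjusted p = 0.0049). Cxcl1, a chemokine that attracts neutrophils, was at 240.3, 215, 205 and 220.3 CPM in BMDM-Nur77-KO and 394, 418, 355 and 420.0 CPM in BMDM-WT (log2 fold change -0.85, SE 0.18, edgeR adjusted p = 0.0029). In these 3 genes all knockout libraries lay below all wild-type libraries. The monocyte chemokine Ccl7 was at 193, 177, 178 and 182 CPM in BMDM-Nur77-KO and 305, 275, 296 and 302 CPM in BMDM-WT (log2 fold change -0.69, SE 0.12, edgeR adjusted p = 0.00019). Its relative Ccl12 was scarcer, at 12.2, 9.85, 10.8 and 8.86 CPM against 18.0, 15.1, 13.2 and 17.8 CPM (log2 fold change -0.62, SE 0.12, edgeR adjusted p = 0.0011), and fell short of the fold limit without replicate 4 of BMDM-Nur77-KO or replicate 1 or 4 of BMDM-WT (log2 fold change down to -0.55), and it missed the threshold with the GC correction (edgeR adjusted p = 0.067). Il23a, a subunit of interleukin 23, was at 6.67, 3.91, 6.30 and 6.16 CPM against 11.2, 10.8, 8.16 and 9.91 CPM (log2 fold change -0.80, SE 0.18, edgeR adjusted p = 0.0052).

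Thrombospondin 1 (Thbs1), a matrix protein that activates TGF-beta, was at 405, 303, 362 and 349 CPM in BMDM-Nur77-KO and 854, 877, 545 and 653 CPM in BMDM-WT (log2 fold change -1.05, SE 0.17, edgeR adjusted p = 0.00013). Slamf7, a receptor of the SLAM family on phagocytes, was at 119, 107, 127 and 106 CPM in BMDM-Nur77-KO and 303, 294, 266 and 302 CPM in BMDM-WT (log2 fold change -1.35, SE 0.10, edgeR adjusted p = 6.2e-11). Both were well separated between the genotypes, and Slamf7 lies in the window of chromosome 1 described above. Errfi1, a feedback inhibitor of the EGF receptor, was at 330.4, 294, 255 and 286 CPM in BMDM-Nur77-KO and 491, 472, 394 and 439.6 CPM in BMDM-WT (log2 fold change -0.62, SE 0.10, edgeR adjusted p = 7.1e-05), and fell short of the fold limit without replicate 3 of BMDM-Nur77-KO or replicate 1 of BMDM-WT (log2 fold change -0.56). Gja1, which encodes connexin 43, Icosl, a costimulatory ligand, and Gng4, a G protein subunit, were lower as well, with log2 fold changes of -0.85 (edgeR adjusted p = 0.00074), -0.81 (edgeR adjusted p = 0.00024) and -1.04 (edgeR adjusted p = 0.0029).

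Several calls in this group rested on the full set of libraries. Il6 was expressed at a low level at 1 h, at 3.93, 3.08, 4.31 and 4.35 CPM against 8.95, 8.80, 3.95 and 7.09 CPM (log2 fold change -0.87, SE 0.26, edgeR adjusted p = 0.041). Replicate 3 of BMDM-WT lay within the knockout range, and the call was lost when any library but that one was left out (edgeR adjusted p up to 0.15, without replicate 1 of BMDM-WT). Oncostatin M (Osm) was at 32.9, 25.6, 25.7 and 27.9 CPM against 54.8, 48.6, 42.8 and 39.6 CPM (log2 fold change -0.73, SE 0.23, edgeR adjusted p = 0.048) and was lost without any of the 8 libraries (up to 0.16). The same held for Rnd1, a small GTPase, without 7 of them (up to 0.15, without replicate 3 of BMDM-Nur77-KO), for Clec4e, the lectin Mincle, without 6 (up to 0.11, without replicate 2 of BMDM-WT), for Id3 without 5 (up to 0.14, without replicate 1 of BMDM-WT) and for Dusp14, a MAP kinase phosphatase, without 4 (up to 0.1, without replicate 3 of BMDM-Nur77-KO).

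The 15 induced genes with higher expression included a coagulation factor, transcription factors and ligands of the TNF family. Tissue factor (F3), the starter of the extrinsic coagulation cascade, was at 121, 123, 129 and 130.3 CPM in BMDM-Nur77-KO and 41.6, 47.6, 50.2 and 56.4 CPM in BMDM-WT (log2 fold change 1.36, SE 0.11, edgeR adjusted p = 1.1e-10). Egr3, a zinc-finger transcription factor of the immediate-early class, was at 224, 189, 221 and 182 CPM in BMDM-Nur77-KO and 85.7, 95.1, 72.4 and 80.3 CPM in BMDM-WT (log2 fold change 1.29, SE 0.14, edgeR adjusted p = 1.1e-07). Etv3, a repressor of the ETS family, was at 773, 851, 797 and 801 CPM in BMDM-Nur77-KO and 497, 497, 499 and 482 CPM in BMDM-WT (log2 fold change 0.71, SE 0.08, edgeR adjusted p = 7.7e-08). Each of these factors was separated between the genotypes without overlap. The TNF family ligand Tnfsf15 (TL1A) was at 15.1, 18.4, 27.8 and 27.3 CPM against 8.81, 7.88, 14.7 and 15.0 CPM (log2 fold change 0.94, SE 0.19, edgeR adjusted p = 0.0014), and here the highest wild-type library, at 15.0 CPM, came close to the lowest knockout library, at 15.1 CPM. Tnfsf4, the ligand of OX40, was higher (log2 fold change 0.62, edgeR adjusted p = 0.0012), although under the fold limit without replicate 4 of BMDM-Nur77-KO or replicate 2 or 3 of BMDM-WT (down to 0.57). The pattern-recognition protein Ptx3 was at 3.51, 2.86, 3.35 and 2.70 CPM against 0.711, 1.41, 1.61 and 1.46 CPM (log2 fold change 1.26, SE 0.25, edgeR adjusted p = 0.0012).

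The zinc-finger gene Zfp697 was at 11.5, 11.1, 9.89 and 13.2 CPM against 1.56, 3.10, 2.94 and 4.07 CPM (log2 fold change 1.99, SE 0.21, edgeR adjusted p = 3.5e-08). Otud1, a deubiquitinase, and H2-M2, a non-classical MHC class I gene, had log2 fold changes of 0.63 (edgeR adjusted p = 0.00029) and 0.85 (edgeR adjusted p = 7.3e-05). Dpep3, a membrane dipeptidase, Olfr111, an olfactory receptor gene, and A630072M18Rik had log2 fold changes of 1.07 (edgeR adjusted p = 0.0028), 1.37 (edgeR adjusted p = 0.00019) and 0.64 (edgeR adjusted p = 0.00089). The calls of Nos2, which encodes the inducible nitric oxide synthase, and Snord89, a small nucleolar RNA, stood at under 2 CPM in every library, and Nos2 at 1 to 2 counts in those of BMDM-WT. They were lost without any of 6 and 7 libraries respectively, with edgeR adjusted p = 0.68 for Nos2 without replicate 3 of BMDM-Nur77-KO and 0.13 for Snord89 without replicate 1 of BMDM-WT. Hspa1b, a heat-shock gene with a near-identical copy and so uncertain, was lost without replicate 4 of BMDM-Nur77-KO or replicate 3 of BMDM-WT (up to 0.07) and fell short of the fold limit without replicate 1 of BMDM-Nur77-KO.

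**Figure D3:**
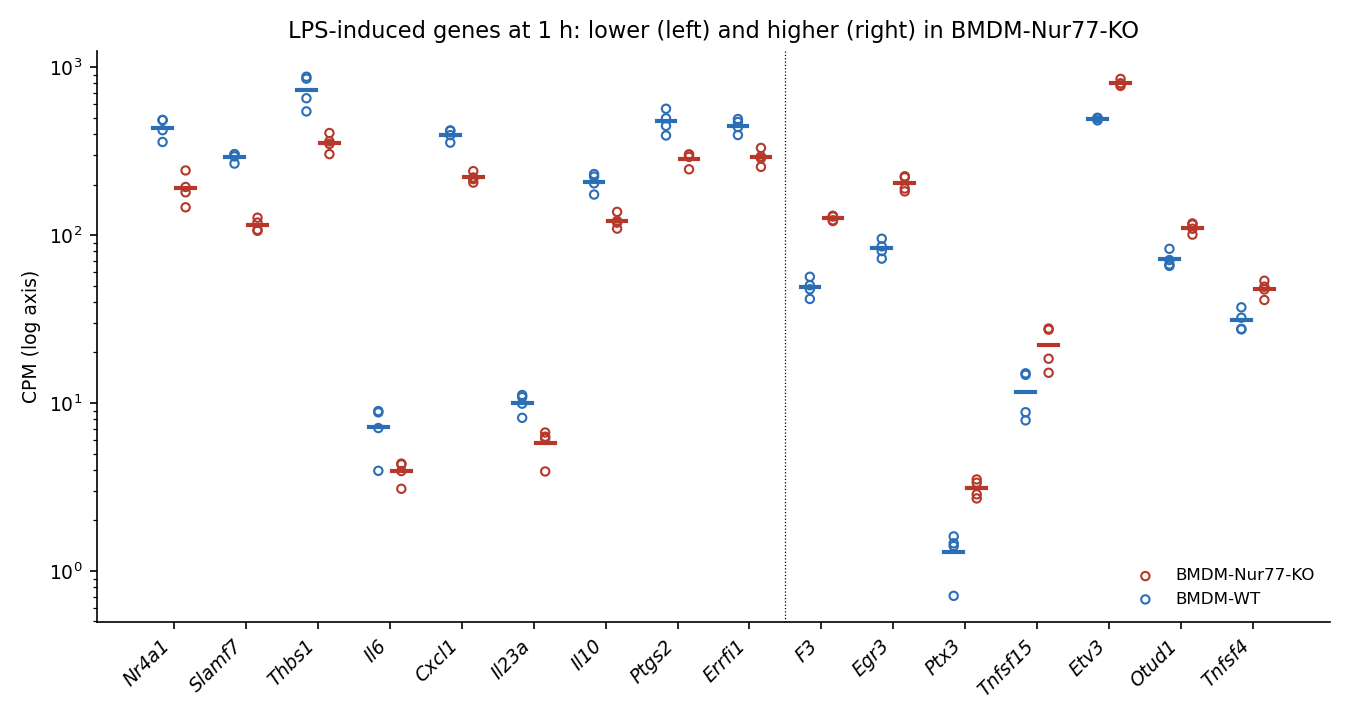
Levels in each of the 8 libraries at 1 h (CPM, log axis) of LPS-induced genes called lower or higher in BMDM-Nur77-KO, with 1 point per library and a line at the mean of each group. For Il10, Ptgs2, Cxcl1, F3, Egr3 and Etv3 the points of the genotypes do not overlap, while for Il6 replicate 3 of BMDM-WT, at 3.95 CPM, lies within the knockout range of 3.08 to 4.35 CPM.

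Promoter sequence was available for some of these genes from RefSeq (GRCm38.p6), and the AP-1 element TGANTCA was searched on both strands, which for this palindrome are the same, in the 250 bases before and 50 after each start. The stretches that hold a match among the induced genes called at 1 h are shown, 5′ to 3′ on the gene's strand, with the match in capitals, since AP-1 factors are among the immediate-early proteins that LPS activates.
F3 (chr3:121723366-121723433, plus strand): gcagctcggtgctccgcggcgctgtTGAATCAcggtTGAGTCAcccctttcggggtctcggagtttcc
Il6 (chr5:30012864-30012896, plus strand): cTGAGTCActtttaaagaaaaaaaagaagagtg
Gja1 (chr10:56377256-56377299, plus strand): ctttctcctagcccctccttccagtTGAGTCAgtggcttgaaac
Hilpda (chr6:29272473-29272529, plus strand): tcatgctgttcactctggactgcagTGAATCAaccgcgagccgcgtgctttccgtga
Slamf7 (chr1:171649010-171649066, minus strand): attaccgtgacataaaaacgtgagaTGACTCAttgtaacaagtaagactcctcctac
The promoter of F3 has 2 matches, which start 146 and 135 bases before the start site. Those of Il6, Hilpda, Slamf7 and Gja1 have 1 each, 249, 128, 42 and 19 bases before it. F3 was higher in BMDM-Nur77-KO and the other 4 lower, so a match was found beside changes of either sign.

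Over all promoters in the table, TGANTCA was in 12 of 124 higher genes (9.68%, exact 95% binomial interval 5.10 to 16.3), 19 of 123 lower genes (15.4%, 9.56 to 23.1), 33 of 294 induced genes (11.2%) and 563 of 8929 tested genes (6.31%). The cyclic AMP element TGACGTCA was in 4.84% of higher, 4.07% of lower and 3.74% of tested genes. The NBRE, AAAGGTCA, which Nur77 binds as a monomer, was in 0 of 124 higher genes (up to 2.93%), 2 of 123 lower genes (1.63%) and 100 of 8929 tested genes (1.12%). A loose NF-kB pattern, GGG and CC set 5 bases apart, was in 67.7%, 61.0% and 71.5%. The intervals cover counting error only, and a match is a string of letters in this window and not a bound site.

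Of 22 genes for AP-1 factors and their relatives, none was higher and 1 lower, with a median log2 fold change of 0.01. Fos was at 402, 431, 443 and 418 CPM in BMDM-Nur77-KO and 419, 490.2, 401 and 385 CPM in BMDM-WT (log2 fold change -0.00, SE 0.09, edgeR adjusted p = 1). Jun was at 338, 293, 291 and 296 CPM in BMDM-Nur77-KO and 305, 344, 281 and 255 CPM in BMDM-WT (log2 fold change 0.04, SE 0.09, edgeR adjusted p = 0.9). Junb was at 928, 818, 761 and 819 CPM against 909.7, 1040.1, 831 and 756 CPM (log2 fold change -0.09, SE 0.19, edgeR adjusted p = 0.89). The genotypes overlapped in all 3, and the estimates of Fos and Jun changed sign with the processing. Fosb was at 91.9, 77.2, 64.0 and 90.1 CPM against 127, 142, 78.7 and 109 CPM and missed the threshold (log2 fold change -0.50, SE 0.16, edgeR adjusted p = 0.055). It passed without replicate 3 of BMDM-WT. It also passed, below the fold limit, with DESeq2's Wald test, the GC correction, a replicate block or the libraries of the contrast alone. The called gene was Atf6, an endoplasmic reticulum stress sensor of the wider family, at 115, 112, 112 and 107 CPM in BMDM-Nur77-KO and 167, 166, 176 and 170.5 CPM in BMDM-WT (log2 fold change -0.61, SE 0.08, edgeR adjusted p = 2.6e-06), which lies in the window of chromosome 1.

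Of 30 genes for EGR factors and other immediate-early proteins, 3 were higher and 1 lower, with a median log2 fold change of 0.16. The higher genes were Egr3, Etv3 and Bhlhe40, a repressor with a basic helix-loop-helix domain that was at 181, 173, 142 and 161 CPM in BMDM-Nur77-KO and 103, 98.9, 87.4 and 101 CPM in BMDM-WT (log2 fold change 0.76, SE 0.10, edgeR adjusted p = 1.6e-06), and the lower gene was Errfi1. Egr1 was at 1166, 1202, 1279 and 1102 CPM in BMDM-Nur77-KO and 954, 1087, 1000.3 and 980.3 CPM in BMDM-WT and did not pass (log2 fold change 0.24, SE 0.14, edgeR adjusted p = 0.41), although the groups did not overlap, since every knockout value exceeded the highest wild-type value of 1087 CPM. In a fit to the libraries of the contrast alone, Egr1 passed below the fold limit. Rgs2 and Plk2 passed the threshold with differences below the fold limit, at 0.48 (edgeR adjusted p = 0.00039) and 0.38 (edgeR adjusted p = 0.00038). Of 19 genes for NF-kB subunits, inhibitors and feedback regulators none was called at a median of -0.09, and the inhibitor Nfkbia and subunit Rela had log2 fold changes of -0.03 (edgeR adjusted p = 0.9) and -0.00 (edgeR adjusted p = 1). In this NF-kB list 16 of 19 values lay below 0, and 1 gene passed the threshold as higher, below the fold limit. Of 10 Kruppel-like factors none was called, and of 15 MAP kinase phosphatases and Sprouty genes 1 was lower (Dusp14). No gene was called among 23 Toll-like receptors, CD14 and adaptors. There, 17 of 23 values lay below 0 with a median of -0.08, and 2 passed the threshold as lower, below the fold limit.

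Of 18 inflammatory cytokine genes, none was higher and 3 were lower (Il6, Il23a and Osm), with a median of -0.09. Tnf was at 4139, 3782, 3821 and 3600.3 CPM in BMDM-Nur77-KO and 3716, 3690.3, 3719 and 3799 CPM in BMDM-WT, with overlapping groups (log2 fold change 0.04, SE 0.12, edgeR adjusted p = 0.93). Il12b overlapped too, at 17.1, 15.8, 21.4 and 19.8 CPM against 19.9, 22.2, 14.8 and 19.0 CPM (log2 fold change -0.04, SE 0.11, edgeR adjusted p = 0.93). Il1b, which encodes interleukin 1 beta, was lower by the test but just under the fold limit, at 1097, 768, 790.5 and 942 CPM in BMDM-Nur77-KO and 1538, 1377, 1088 and 1321 CPM in BMDM-WT (log2 fold change -0.57, SE 0.13, edgeR adjusted p = 0.0062). Its groups overlapped by a narrow margin, and it passed the fold limit without replicate 1 or 4 of BMDM-Nur77-KO or replicate 3 of BMDM-WT. Of 20 chemokine ligands on the list 3 were lower and none higher, with 15 of 20 values below 0 and a median of -0.12. The list did not hold Ccl28, which was called higher as given above (log2 fold change 2.03). Cxcl10, which attracts T cells, and Ccl2 passed the threshold below the fold limit, at -0.49 (edgeR adjusted p = 0.00014) and -0.43 (edgeR adjusted p = 0.03), while Ccl6 passed in the other direction at 0.31 (edgeR adjusted p = 0.006).

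In the TNF superfamily the called genes were higher, with 4 of 20 genes higher and none lower at a median of 0.04. Beside Tnfrsf10b, Tnfsf15 and Tnfsf4, Tnfsf8, the ligand of CD30, was at 15.8, 21.7, 22.2 and 20.7 CPM against 9.10, 7.95, 11.5 and 15.3 CPM (log2 fold change 0.89, SE 0.15, edgeR adjusted p = 0.00018). Coagulation genes had 2 higher members, F3 and F10, which encodes coagulation factor X (log2 fold change 0.73, edgeR adjusted p = 1.4e-06), and 1 lower member, Thbs1, among 14. Of 24 anti-inflammatory mediators 1 was higher and 1 lower. The lower gene was Il10, and the higher one was the scavenger receptor Marco, at 3.34, 3.46, 2.55 and 2.70 CPM against 0.924, 2.04, 1.14 and 0.626 CPM (log2 fold change 1.29, SE 0.26, edgeR adjusted p = 0.0014). Of 24 scavenger and lectin receptors, Marco was likewise the higher gene and Clec4e the lower one.

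Genes for phagocyte functions showed smaller differences. Of 6 genes for Fc gamma receptors and their partners, which take up antibody-coated particles, all 6 had lower values, with a median log2 fold change of -0.44, and 4 passed the threshold. Fcer1g, the signalling chain they share, was at 314, 283, 297 and 281 CPM in BMDM-Nur77-KO and 457, 508, 462 and 489 CPM in BMDM-WT (log2 fold change -0.71, SE 0.07, edgeR adjusted p = 2.3e-08) and lies in the window of chromosome 1. The receptors Fcgr3, Fcgr4 and Fcgr1 passed below the fold limit, at -0.52 (edgeR adjusted p = 0.0011), -0.37 (edgeR adjusted p = 0.038) and -0.31 (edgeR adjusted p = 0.03). Before LPS, 5 of the 6 were called lower. Of 15 genes of Ly6C-low monocytes, the population that depends on Nur77 in mice, 2 were higher and 3 lower. The lower genes were Nr4a1, Adgre4, an adhesion receptor of this lineage (log2 fold change -0.86, edgeR adjusted p = 0.00027), and the chemokine receptor Cx3cr1, at 2.57, 1.05, 1.04 and 1.95 CPM against 2.77, 3.38, 3.68 and 3.44 CPM (log2 fold change -1.01, SE 0.29, edgeR adjusted p = 0.03), whose call was lost without any of 5 libraries (up to 0.14, without replicate 2 of BMDM-Nur77-KO). The higher genes were Itgax and Ear2, a ribonuclease gene with close relatives, and so uncertain (log2 fold change 1.20, edgeR adjusted p = 0.0032).

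Genes for DNA replication and mitosis leaned down, with 29 of 30 values below 0 and a median log2 fold change of -0.29, but just 1 was called. This was Top2a, the topoisomerase of dividing cells, at 123, 116, 127 and 132 CPM in BMDM-Nur77-KO and 172, 168, 202 and 214 CPM in BMDM-WT (log2 fold change -0.60, SE 0.12, edgeR adjusted p = 0.00071), and it fell short of the fold limit without replicate 2 of BMDM-Nur77-KO or replicate 3 or 4 of BMDM-WT (down to -0.54). A further 5 passed below that limit, among them the replication helicase gene Mcm6 at -0.30 (edgeR adjusted p = 0.0012) and the ribonucleotide reductase gene Rrm1 at -0.40 (edgeR adjusted p = 0.0062). Genes for cholesterol synthesis leaned up, with 21 of 24 values above 0 and a median of 0.20, and none was called.

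No gene was called among 24 genes of the TCA cycle and itaconate, 22 of glycolysis and HIF, 16 of the ATF4 stress response, 10 of MHC class II presentation and 18 other nuclear receptors. The list of glycolysis and HIF did not hold Ankrd37, called higher as given above (log2 fold change 3.16). It did not hold Hilpda either, which was called lower (log2 fold change -0.65, edgeR adjusted p = 0.003). Single genes were called in each of the remaining lists. Among 16 targets of NRF2, the antioxidant peroxiredoxin Prdx1 was at 3836, 4402, 4360.2 and 4353 CPM against 2756, 2424, 3085 and 3014 CPM (log2 fold change 0.59, SE 0.11, edgeR adjusted p = 0.00047), and fell short of the fold limit without replicate 2, 3 or 4 of BMDM-Nur77-KO or replicate 1 or 2 of BMDM-WT (down to 0.52). Hspa1b was the higher gene of 16 heat-shock genes, Ptx3 that of 11 acute-phase genes and Itgax that of 13 complement genes. Ptgs2 was the lower gene of 14 for prostaglandin and leukotriene synthesis, Icosl that of 12 costimulatory ligands and Cx3cr1 that of 12 chemokine receptors. Cxcr3, a chemokine receptor not on that list, was also called lower (log2 fold change -0.94, edgeR adjusted p = 0.017).

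Several named genes lost their call without replicate 4 of BMDM-WT, the library that stood apart. The edgeR adjusted p was then 0.075 for Clec4e, 0.065 for Cx3cr1, 0.053 for Dusp14, 0.075 for Il6, 0.066 for Nr4a3, 0.056 for Osm, 0.098 for Rnd1 and 0.06 for Trim30b, all lower with all 8 libraries, and 0.09 for Nos2, 0.066 for Ppp1r1a, 0.085 for Snord89 and 0.054 for Trim34b, all higher. Ccl12, Itgav and Top2a fell short of the fold limit.

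Much of the difference at 1 h was present before LPS. Of the 170 higher genes 119 (70%) were also called higher at 0 h, where 2.38% of all genes tested were, and of the 153 lower genes 93 (60.8%) were also called lower, where 2.44% were. None was called in the opposite direction at 0 h. The libraries of the 2 times are separate. Among the induced genes, 9 of the 15 higher and 10 of the 26 lower were called at 0 h in the same direction. Cd5l, Fn1, Gfra2 and Ddx58 had log2 fold changes at 0 h of -4.43, 2.48, 3.57 and -1.97, beside -4.27, 2.07, 3.55 and -1.91 at 1 h. Others were small or not measurable at 0 h, such as Ptgs2 (log2 fold change -0.08, edgeR adjusted p = 0.89 at 0 h) and Errfi1 (log2 fold change 0.04, edgeR adjusted p = 0.84 at 0 h).

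**Figure D4:**
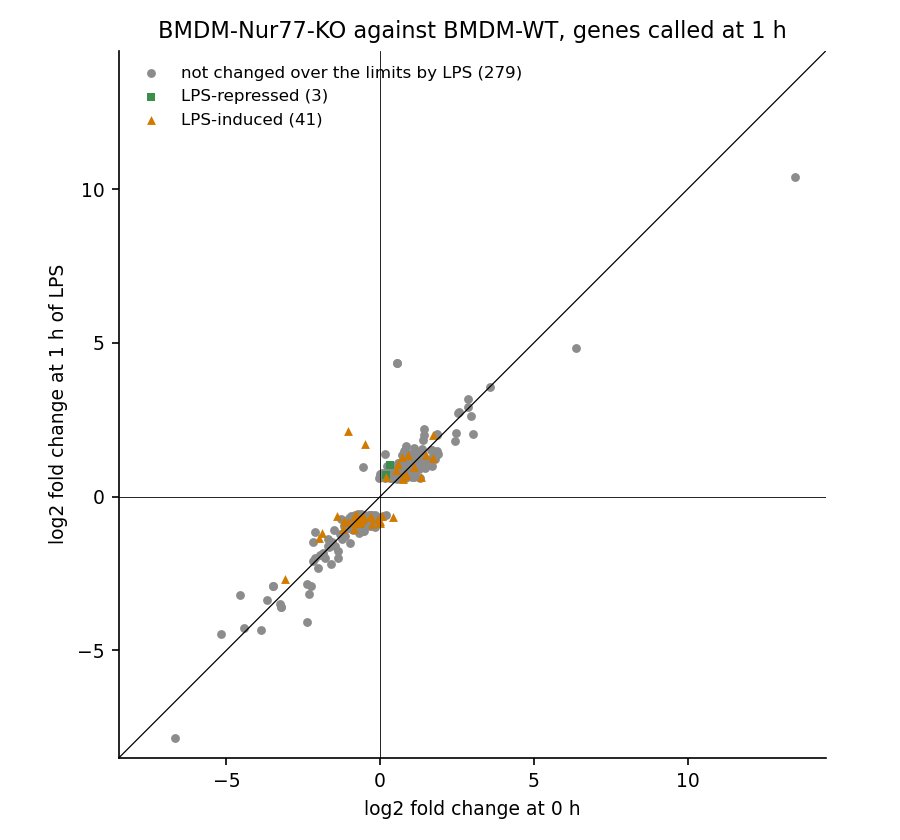
Each point is 1 of the 323 genes called at 1 h, with its log2 fold change, BMDM-Nur77-KO against BMDM-WT, at 0 h on the horizontal axis and at 1 h of LPS on the vertical axis; the diagonal marks equal values. Triangles are the 41 LPS-induced genes, squares the 3 LPS-repressed genes and circles the other 279; most points lie near the diagonal, and none of the called genes passed the test of the change between the 2 times after adjustment.

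The change of the genotype difference from 0 h to 1 h was tested as the interaction of genotype and LPS. It passed for 8 genes (0.0709%) at an adjusted p under 0.05, with 1251 genes (11.1%) at an unadjusted p under 0.05. None of the 8 was among the 323 genes called at 1 h, of which 56 had an unadjusted p under 0.05. For Irf1, an interferon regulatory factor, the log2 fold change went from -0.81 at 0 h to 0.06 at 1 h (interaction 0.87, edgeR adjusted p = 0.0028). Its levels at 1 h were 1099, 836, 1027 and 862 CPM in BMDM-Nur77-KO and 1003, 923, 867 and 866 CPM in BMDM-WT, and the genotypes overlapped. Zfp36, which encodes the mRNA-destabilizing protein tristetraprolin, went from -0.66 to 0.01 (interaction 0.67, edgeR adjusted p = 0.0083). In both, the lower level of BMDM-Nur77-KO at 0 h was no longer measured at 1 h, where the small estimates of Irf1 and Zfp36 changed sign under some alternatives.

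The interaction was also positive for Stat2 (0.65, edgeR adjusted p = 0.015), Irf7 (0.94, 0.042) and Cxcl10 (0.78, 0.035), all of the interferon response. It was negative for Dusp16, a phosphatase of JNK (-0.70, 0.015), Mex3c, an RNA-binding ubiquitin ligase (-0.62, 0.035), and Tnfaip3, which encodes the NF-kB inhibitor A20 (-0.40, 0.04). Over 28 interferon-stimulated genes, 13 were called lower at 0 h, with a median log2 fold change of -0.62, and at 1 h 1 was lower, with a median of 0.02. The one left on this list was Ddx58. The interferon-inducible Ifi200 family was a separate list of 12 genes, with 7 called lower at 0 h and 7 at 1 h. In that family, 2 were called higher at 0 h and 1 at 1 h. At 0 h, Gbp2, a guanylate-binding protein, differed by -1.48 (edgeR adjusted p = 0.00024) and Gbp5 by -1.48 (edgeR adjusted p = 3e-05), and at 1 h by -0.32 (edgeR adjusted p = 0.62) and -0.16 (edgeR adjusted p = 0.76). Of the 28, 3 passed the test of the change between the times (Irf1, Stat2 and Irf7). The count of 8 was unsteady: it was 37 with DESeq2's Wald test and 274 in a fit to the libraries of the contrast alone, and 2 to 5 without replicate 1, 2 or 3 of BMDM-Nur77-KO or 3 or 4 of BMDM-WT at 0 h, or replicate 1, 3 or 4 of BMDM-Nur77-KO or 1, 2 or 3 of BMDM-WT at 1 h.

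At later times fewer of these calls held, although more genes differed. At 5 h 5.61% of all genes were higher and 3.13% lower, and at 18 h 5.7% and 4.12%. Of the 170 higher genes, 85 (50%) were called higher at 5 h and 74 (43.5%) at 18 h, and of the 153 lower genes 65 (42.5%) and 60 (39.2%) were called lower. In all, 79 genes were called in the same direction at all 4 times, 44 higher and 35 lower, and 46 had an adjusted p under 0.05 at 1 h alone, 23 each way. The 26 induced genes with lower expression differed most over time. Of these, 9 were still called lower at 5 h and 1 at 18 h, while 3 and 5 were called higher, and their median log2 fold change went from -0.66 at 0 h and -0.79 at 1 h to -0.27 at 5 h and 0.40 at 18 h. The 15 induced genes with higher expression had medians of 0.74, 1.07, 0.81 and 1.12, and 10 were called higher at 18 h.

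The difference at 18 h was compared with that at 1 h in the same model, a contrast added after the values were seen. The genes were chosen by their 1 h difference, which enters this contrast, so the counts of induced genes that pass it are a description. The contrast passed for 10.9% of all genes, for 18 of the 26 and for 4 of the 15. Of the 26, 24 had a higher log2 fold change at 18 h. Il6 went from -0.87 at 1 h to 3.66 at 18 h and Ptgs2 from -0.73 to 2.95. Thbs1 went from -1.05 to 0.93 and Nr4a3 from -0.74 to 1.61. Cxcl1 went from -0.85 to 2.13, where the value at 18 h did not pass (edgeR adjusted p = 0.12). Il10 had a larger difference at 5 h (-1.33) before reaching 0.45 at 18 h. Gja1 and Id3 had negative values at 18 h that did not pass, at -1.30 (edgeR adjusted p = 0.093) and -1.21 (edgeR adjusted p = 0.073). Among the induced genes with higher expression, Egr3 was at 2.83 at 5 h and 3.12 at 18 h, and F3 at 1.14 and 1.84.

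**Figure D5:**
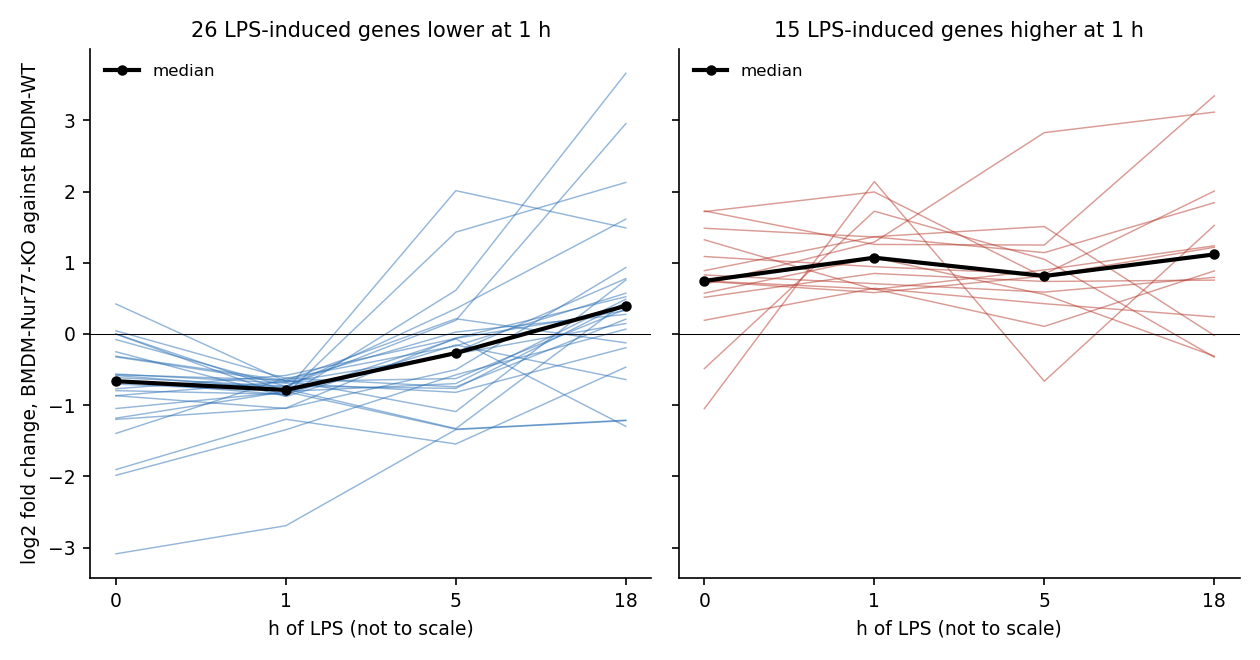
Thin lines follow the log2 fold change, BMDM-Nur77-KO against BMDM-WT, of each LPS-induced gene called lower (left, 26 genes) or higher (right, 15 genes) at 1 h through 0, 1, 5 and 18 h of LPS (time axis not to scale), and the thick line is the median. The median on the left goes from -0.79 at 1 h to 0.40 at 18 h, and that on the right stays between 0.74 and 1.12.

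Markers of most other cell types were low, and the summed level of those of osteoclasts was not. Fibroblast and erythroid markers were at no more than 3 counts in every library for 7 of 8 genes each, with hemoglobin and Col1a1 among them, and mast cell markers for 6 of 8. None of the 1 B cell marker and 3 dendritic cell markers tested was called. Of 8 T and NK cell markers 1, Cd247, was tested and not called, and the summed level of the list was 3.46 to 5.11 CPM in BMDM-Nur77-KO and 5.55 to 6.68 CPM in BMDM-WT, without overlap. Cd3e was listed at 0 in all knockout libraries and at 0.142 to 0.417 CPM in those of BMDM-WT, and Cd3d and Gzma were at no more than 3 counts in every library. Gzmb, Sh2d1b1 and Cd244a, which NK cells also express, were lower, and the part of such cells in their level was not tested. Of 12 neutrophil markers 6 were tested and 2 were higher, Ltf (log2 fold change 0.73, edgeR adjusted p = 0.013) and Ngp (log2 fold change 0.67, edgeR adjusted p = 0.0077), and the summed level of the list was 53.5 to 63.7 CPM in BMDM-Nur77-KO and 37.9 to 49.3 CPM in BMDM-WT, with Ly6g and Elane at no more than 3 counts. Of 8 osteoclast markers 6 were tested and 2 were higher, the fusion receptors Dcstamp, at 81.0, 83.2, 101 and 96.2 CPM against 43.3, 35.0, 49.4 and 50.6 CPM (log2 fold change 1.02, edgeR adjusted p = 1.5e-05), and Ocstamp (log2 fold change 0.86, edgeR adjusted p = 0.046). Ctsk passed the threshold in the other direction, below the fold limit (log2 fold change -0.51, edgeR adjusted p = 0.012). The summed level of the osteoclast list was 1173 to 1299.7 CPM against 875 to 1005 CPM, with Calcr and Oscar at no more than 3 counts. Most of that sum came from Atp6v0d2, which was not called (log2 fold change 0.41, edgeR adjusted p = 0.26). The endothelial marker Kdr was lower, at 0.599, 0.376, 0.558 and 0.601 CPM against 1.14, 1.27, 1.07 and 1.04 CPM (log2 fold change -1.08, edgeR adjusted p = 0.016). The part of these cells in the higher level of the matrix genes named above, which osteoclasts and neutrophils also express, was not tested.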

How the data were processed

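RNA-seq was analysed in 32 libraries of BMDMs, of which the 8 at 1 h of LPS are described. The authors aligned the reads to mm10 with HISAT2 2.1.0, kept alignments with a mapping quality over 15 and counted tags per RefSeq transcript with HOMER. The deposited table holds expected counts with no normalization, in steps of 0.5, for 42361 transcripts. The libraries are strand-specific, and whether the counting used strand is not given in the sources used here, so overlapping antisense genes are uncertain. Counts on 93 transcripts with no gene name (0.233% to 1.37% of tags) were left out, each of 25067 genes was represented by its most counted transcript, and counts were rounded to whole numbers.

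Counts were scaled with TMM and tested with edgeR 4.0.16 (R 4.3.3), by its quasi-likelihood test in 1 model with 8 group means over all 32 libraries, for 11279 genes (mean RPKM above 1 in any group), with Benjamini-Hochberg adjustment. CPM values use the TMM-scaled library size. The comparisons were the genotypes at each time, the average LPS response at 1 h, the interaction and, added after the values were seen, 18 h against 1 h. Fold changes of genes with 3 or fewer counts in a group depend on the prior count, and intervals and floors cover counting error only. The steps were tested on simulated data. The gene lists, written by hand, and the genes described were chosen with earlier results of these data known. Genes named are the NR4A family, the 15 largest differences each way without overlap, the LPS-induced called genes (up to 15 each way), interaction genes, called list members, called genes within 5 Mb of Nr4a1, leading markers and Tnf, Il1b, Il6, Il10, Il12b, Jun, Fos, Junb, Fosb, Egr1, Egr3 and F3. Other names in the text were chosen after their values were seen. Alternatives were DESeq2 1.42.0 (Wald test, size factors), other expression filters, the libraries of a contrast alone, a replicate block, a correction for transcript GC content (lowess span 0.3), every transcript, other fold limits, and each library left out in turn.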

Additional observations from a re-analysis of the deposited data

Results flagged for a closer look

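The genotype difference changed between 0 h and 1 h of LPS, by the edgeR test of the interaction with adjustment over all genes, for 8 genes. In log2 units, BMDM-Nur77-KO against BMDM-WT, it rose by 0.87 for Irf1, 0.67 for Zfp36, 0.65 for Stat2, 0.78 for Cxcl10 and 0.94 for Irf7. It changed by -0.70 for Dusp16, by -0.62 for Mex3c and by -0.40 for Tnfaip3.

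Between 1 h and 18 h, 14 genes had opposite calls and passed the contrast of the times, and the genotype difference rose in 12 of them. Among these, it rose by 1.98 for Thbs1, 2.35 for Nr4a3, 3.69 for Ptgs2 and 4.53 for Il6, each of them called lower at 1 h and higher at 18 h. The 1 h calls of Nr4a3 and Il6 were lost without any of 4 and 7 libraries respectively.

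Single libraries stood apart from the other 3 of their group in 15 of 222 groups of 4 CPM values examined, where chance sets apart about 1 in 20. Replicate 1 of BMDM-Nur77-KO did so for Erdr1 (6.24), its copy Gm47283 (6.33), Ear2 (2.39), Jun (338), Mmp12 (3009), Prdx1 (3836) and Tnfaip3 (2526). Replicate 2 did for Dppa3 (0.150), Gzmb (0.075) and Zdhhc2 (0), replicate 3 for Cd5l (39.1) and Trim12a (0.638) and replicate 4 for Trim30b (0.075). In BMDM-WT, replicate 1 stood apart for Trim30b (0.426) and replicate 4 for Etv3 (482). Dppa3, Gzmb, Zdhhc2 and Trim30b had 0 to 2 counts in a library of BMDM-Nur77-KO.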

How the results depend on the processing

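The 170 higher and 153 lower genes became 178 and 161 with DESeq2's Wald test, 193 and 160 with the GC correction and 212 and 174 in the libraries of the contrast alone, and 147 to 171 and 126 to 154 with 1 library left out; 261 to 323 of the 323 genes were shared with each alternative other than every transcript and the fold limits. With every transcript they were 264 and 244, with 603 induced genes, 40 of them lower, and with 202 and 141 also called at 0 h. With no fold limit 391 genes were higher and 343 lower (23 and 53 induced, 262 and 212 also at 0 h, 42 and 62 list members), and with a limit of 1 77 and 50 (8 and 5, 50 and 42, 10 and 15). Genes lower at both times numbered 57 without the 9 windows. Repressed genes numbered 64 with the RPKM filter at 1 h alone. Induced genes lower at 1 h numbered 15 to 29 with 1 library left out. The 8 interaction genes became 37 with DESeq2, 274 in the libraries of the contrast alone, 3 without an expression filter and 2 to 9 with 1 library left out. On the forward strand, the NF-kB pattern was in 57.3% of higher and 43.9% of lower promoters. The cause of these shifts was not tested, beyond the number of features or libraries that each alternative sets.

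Replicate numbers did not pair the libraries: deviations of same-numbered libraries correlated at 0.254, -0.0482, -0.0363 and 0.12, and not every library correlated best with its own number. With the replicate block 160 genes were higher and 151 lower, and 6 passed the interaction.

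Of 1764 values of 111 single genes under alternatives, 1636 kept direction and side of the threshold, 94 lost it, 13 gained it and 21 changed sign, all of them for genes near 0. Fos changed to 0.000012 (DESeq2), 0.00012 (size factors), 0.0031 (filterByExpr), 0.0011 (libraries of the contrast), 0.00063 (replicate block) and ranged from -0.043 to 0.077 with 1 library left out. With the GC correction Irf7 changed to -0.034, Jun to -0.018 and Zfp36 to -0.035. With 1 library left out, the log2 fold change ranged for Il12b from -0.14 to 0.052, Irf1 from -0.0097 to 0.12, Irf7 from -0.066 to 0.10, Jun from -0.026 to 0.12 and Zfp36 from -0.053 to 0.045. Totals of 8742362 to 13374608 counts limit genes under about 1 CPM, where 1 library often decided a call.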
